A study of Mus musculus with 4 samples.

Results

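Bone morphogenetic protein (BMP) signalling and the Id genes were examined in satellite cells, which are the stem cells of adult skeletal muscle, with and without the calcitonin receptor gene Calcr. The 10 genes were taken by platform gene symbol: Chrdl2, Bmp4, Bmpr1a, Bmpr2, Smad1, Smad5, Smad6, Id1, Id2 and Id3. They are 10 of 18193 genes named on the array and had 23 of the 45101 probe sets, a probe set being a group of short probes that read the same transcript. Of these, 20 probe sets of 9 genes passed the brightness filter (a mean over the 4 arrays, on the log2 scale, of at least 63.9 in signal) and were among 22519 probe sets tested. The conditional knockout (cKO) samples came from mice with floxed Calcr alleles (Calcr flox/flox) and the control samples from Calcr+/+ mice. All mice carried Pax7-CreERT2, a tamoxifen-dependent Cre active in Pax7-expressing cells, and the Rosa-YFP reporter, all received tamoxifen, and all were 10 weeks old. Cells positive for YFP were taken by flow sorting 2 weeks later, without culture. There were 2 biological replicates per group, each measured on its own array. The sources used here do not say whether a sample pooled several mice, and the spread below is that between these samples. Chrdl2 was chosen on its low cKO signal in these arrays and the other members with their cKO and control values already known, so their differences in that comparison are given as a description, with no p for any of them.

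BMPs are secreted ligands of the TGF-beta family that join type I and type II serine/threonine kinase receptors. The activated type I receptor phosphorylates Smad1, Smad5 and Smad9, which enter the nucleus with Smad4 and switch on targets such as Id1, Id2 and Id3. The Id proteins bind E proteins and keep them from pairing with MyoD and other basic helix-loop-helix factors, and BMP signalling in muscle is known for supporting the expansion of myogenic cells while holding back differentiation. Chordin-like proteins, noggin and chordin bind BMPs outside the cell and keep them from their receptors.

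Calcr itself had signals of 568 and 684 on cKO arrays, against 1268 and 1424 on control arrays, so the targeted transcript was lower on both cKO arrays. Whether that probe set reads the floxed part of the gene is not stated in the sources. Median signals over all probe sets ran from 57.9 to 68.8 on cKO arrays and from 64.4 to 70.4 on control arrays, and 2% trimmed means from 211 to 240 and from 230 to 238. The satellite cell markers Pax7 (2170 and 2433 on cKO arrays, 2319 and 3647 on control arrays) and Myf5 were bright on every array. All 9 satellite cell markers had a negative log2 difference between cKO and control, with a median of -0.15 against -0.04 over all genes. Of these, 3 (Sdc4, Cd34 and Myod1) were lower on both cKO arrays without overlap, against 12% of all genes, and 6 overlapped. After quantile normalization 8 of 9 were lower and after median centring 7 of 9, with only Myod1 without overlap in each case. Without control replicate 2, 4 of 9 were lower and the median was 0.09. Transcripts of other cell types differed by replicate number in both genotypes: 14 of 14 endothelial markers were higher on the arrays numbered 1, with summed signals of 9410 and 1397 on cKO arrays 1 and 2, against 10300 and 1126 on control arrays 1 and 2. The defining Pecam1 read 798 and 62.8, against 778 and 77.5. Pericyte and smooth muscle markers did so in 8 of 9 cases, at summed signals of 17510 and 7943, against 15910 and 9065, and the defining Rgs5 read 4828 and 649, against 5200 and 442. The summed leukocyte markers were 1327 and 508 on cKO arrays, against 1126 and 1881 on control arrays, and the defining leukocyte marker Ptprc was between 2.23 and 39.5 on every array. Fibro-adipogenic markers summed to 22780 and 25230, against 20960 and 27220, with the defining Pdgfra between 36.0 and 58.2. Muscle fibre markers summed to 2215 and 2902, against 4172 and 2217, with Acta1 at 486 and 689, against 881 and 478, and satellite cell markers to 19990 and 21420, against 20350 and 26190. In sorted cells measured in bulk, fewer cells of a type and less RNA per cell cannot be told apart.

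Chrdl2, which encodes the BMP antagonist chordin-like 2, was the member with the widest gap between the genotypes. Its probe set read 476 and 91.3 on cKO arrays, against 999 and 2086 on control arrays. The genotypes did not overlap, while the arrays of each genotype also differed from each other, with cKO array 2 lowest and control array 2 highest of the 4. The means were 284 ± 272 in cKO cells and 1543 ± 769 in control cells (SD, n = 2), a 6.88-fold lower level in cKO on the log2(signal + 1) scale. On the log2 scale this is -2.78 (SE 0.73), with a 95% interval of -4.50 to -1.07 in the limma fit. Its rank from the lowest was 3 among 10140 genes, each represented by its brightest kept probe set. Since Chrdl2 was chosen on its low cKO signal in these arrays, nothing is read from this rank or interval. Between the arrays numbered 1 the log2 difference was -1.07, and between those numbered 2 it was -4.50. Without cKO replicate 2 the difference was -1.60, and without cKO replicate 1 it was -3.97. Without control replicates 1 and 2 it was -3.31 and -2.25. Beside it, Pax7 was highest on control array 2 as well. The summed leukocyte markers were likewise lowest on cKO array 2 and highest on control array 2. So were Cd74, H2-Aa, Fcer1g, Tyrobp and Ptprc. Cd74 read 111 and 49.5 on cKO arrays, against 89.7 and 451 on control arrays. Lyz2 and Itgam were lowest on cKO array 2 but not highest on control array 2. Cd68 and Cd3e did neither, with Cd68 at 402 and 282, against 334 and 195. The 5 kept leukocyte markers had a median log2 difference of -1.43, with 4 of them lower in cKO. The satellite cell markers differed by -0.40 to -0.05, and 5 of 9 turned positive without control replicate 2. The part of these cell types in the Chrdl2 difference was not tested.

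**Figure D1:**
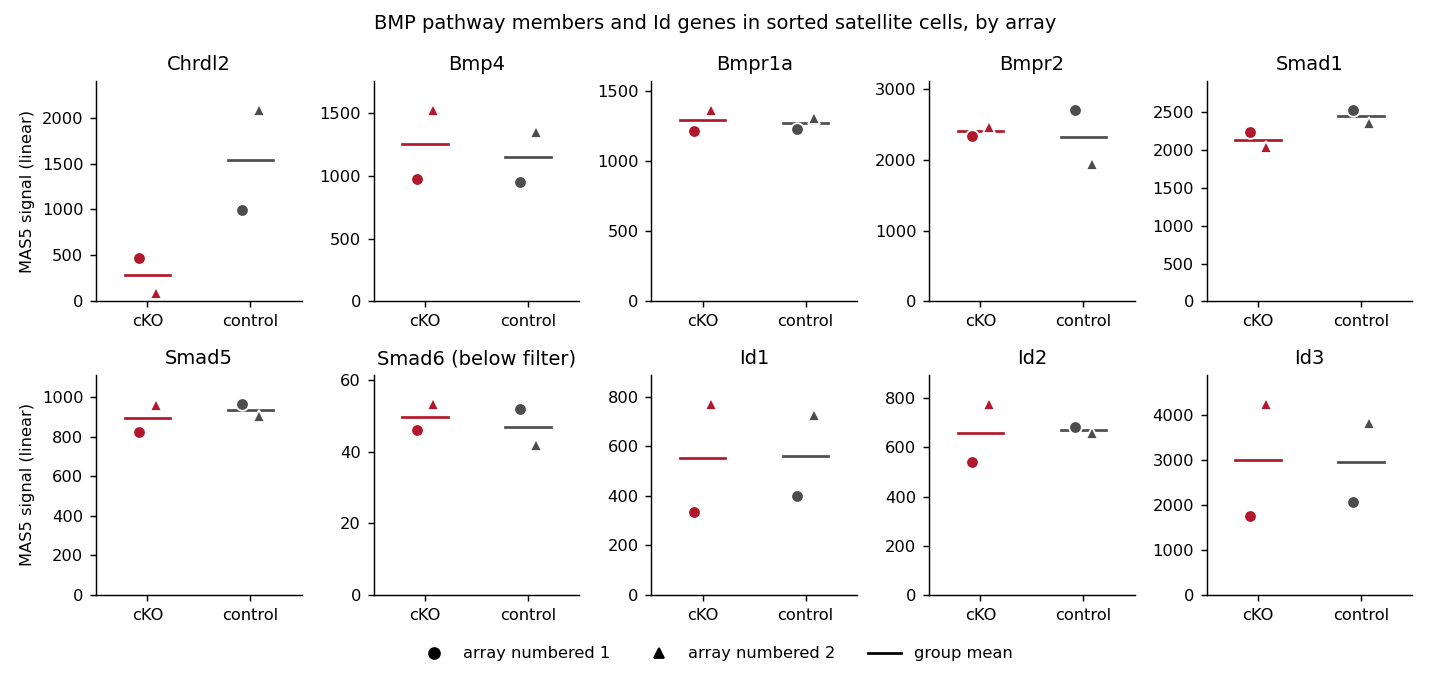
Linear MAS5 signals of the brightest probe set of each member, with cKO left of control; circles are arrays numbered 1, triangles arrays numbered 2 and bars the means of 2 arrays. Chrdl2 and Smad1 have both cKO arrays below both control arrays, while Id1 and Id3 separate by array number in both genotypes.

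The genes with the profile most like that of Chrdl2 were found by Euclidean distance between log2 values centred on each gene's mean over the 4 arrays, among 10139 other genes. The nearest was Laptm5, which encodes a lysosomal membrane protein known from blood cells, at a distance of 0.80. It read 86.6 and 23.7 on cKO arrays, against 313 and 328 on control arrays. The next were Ilkap, an integrin-linked kinase-associated phosphatase gene, at 1.20, and Glrb, a glycine receptor subunit gene, at 1.35. Ilkap read 2013 and 805 on cKO arrays and 4276 and 5732 on control arrays at that probe set. Its other kept probe set read 721 and 701, against 712 and 847. Glrb read 90.4 and 29.9 on cKO arrays, against 105 and 231 on control arrays. The other kept Glrb probe set overlapped between the genotypes, at 97.4 and 33.0, against 42.7 and 268. No other member was near Chrdl2: the closest, Smad1, was at rank 3425 of these genes, and Id1 and Id3 were at ranks 9108 and 9332.

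The signals of the ligand gene and of the receptor genes overlapped between the genotypes. Bmp4, which encodes a BMP ligand, read 977 and 1528 on cKO arrays, against 954 and 1351 on control arrays, and the groups overlapped. Its log2 difference was 0.11 with a 95% interval of -0.61 to 0.82. Bmpr1a, the gene of a type I receptor, read 1218 and 1368 on cKO arrays and 1230 and 1313 on control arrays at its brightest probe set. The log2 difference there was 0.02, with an interval of -0.49 to 0.54, and its 5 kept probe sets ran from -0.07 to 0.10. The fifth of these was dim and irregular, at 105 and 73.6 on cKO arrays and 195 and 34.3 on control arrays. A sixth Bmpr1a probe set did not reach the filter, with signals from 4.59 to 14.9. Bmpr2, the gene of the type II BMP receptor, read 2337 and 2464 on cKO arrays, against 2705 and 1943 on control arrays, so that both cKO arrays lay between the control arrays. Its log2 difference was 0.07 at that probe set and -0.15 and -0.36 at the other kept probe sets. All 3 probe sets were lower in cKO between the arrays numbered 1 (-0.21, -0.39 and -1.04) and higher in cKO between those numbered 2 (0.34, 0.10 and 0.32).

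Among the Smads, Smad1 was slightly lower on both cKO arrays at each of its probe sets. The brightest read 2234 and 2048 on cKO arrays and 2535 and 2364 on control arrays, with means of 2141 ± 131 in cKO cells and 2449 ± 121 in control cells (SD, n = 2). Its log2 difference was -0.19 (SE 0.17) with a 95% interval of -0.60 to 0.21. The median difference of the satellite cell markers, -0.15, was of similar size, and its part in the Smad1 values was not tested. The other probe sets read 1922 and 1851 on cKO arrays, against 1981 and 2108, and 196 and 167, against 238 and 216, at log2 differences of -0.12 and -0.32. All 3 remained without overlap after quantile normalization, and 2 of the 3 with arrays centred on their median. Smad5, the gene of a second receptor-activated Smad, overlapped between the groups at all 3 probe sets, with log2 differences of -0.07, 0.15 and -0.02. Its brightest probe set read 823 and 961 on cKO arrays, against 966 and 906 on control arrays. Smad6, which encodes an inhibitory Smad and is itself a BMP target, did not reach the filter. It read 46.1 and 53.5 on cKO arrays, against 51.8 and 42.0 on control arrays, and the groups overlapped.

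**Figure D2:**
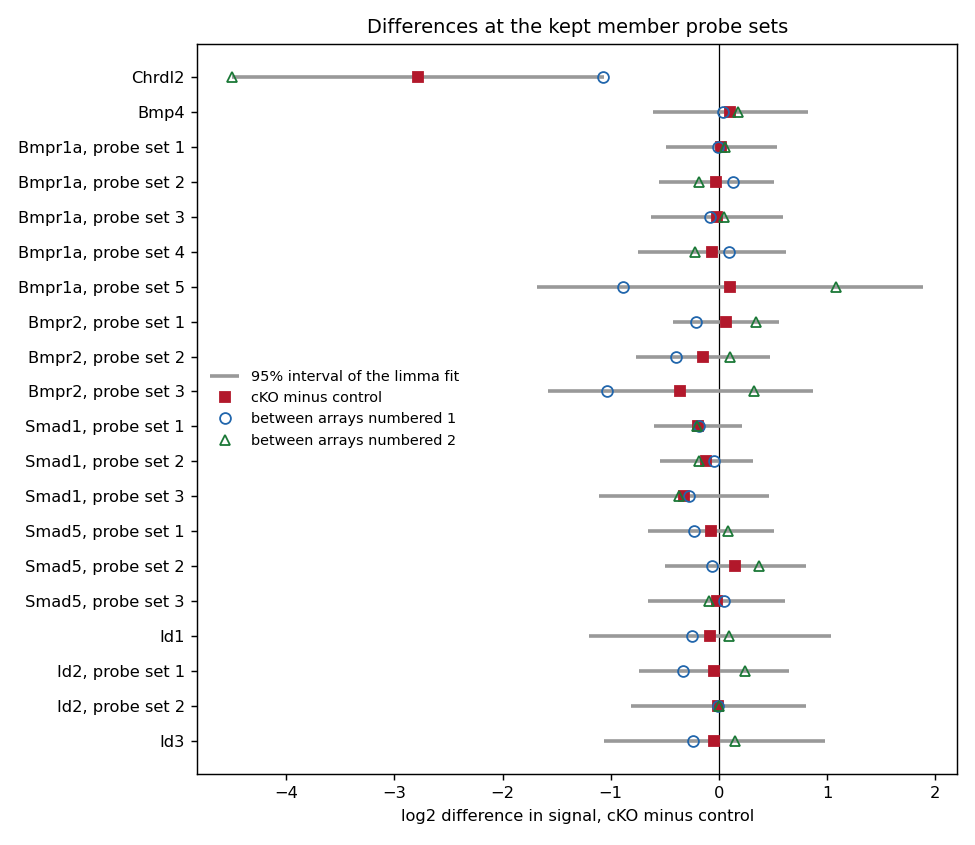
Log2 difference in signal, cKO minus control, at the 20 kept member probe sets; squares are the limma estimates, grey bars their 95% intervals, circles the difference between arrays numbered 1 and triangles that between arrays numbered 2. Chrdl2, which was chosen on this difference, has the lowest estimate, and its 2 within-number differences lie far apart.

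The Id genes, the classical targets of BMP-activated Smads, overlapped between the genotypes at every kept probe set. Id1 read 335 and 772 on cKO arrays, against 398 and 725 on control arrays. Id3 read 1753 and 4259 on cKO arrays, against 2072 and 3832 on control arrays. For each, array 2 was the brighter in both genotypes, and the cKO arrays lay outside the control arrays on both sides. The log2 differences between genotypes were -0.08 for Id1, with a 95% interval of -1.20 to 1.04, and -0.04 for Id3, with an interval of -1.06 to 0.98. These intervals are wide enough to hold a 2-fold change in either direction for Id1. Id2 read 542 and 778 on cKO arrays and 685 and 658 on control arrays at its brightest probe set, with a log2 difference of -0.05 (interval -0.74 to 0.65). At its second kept probe set it read 231 and 301, against 233 and 302, with a difference of -0.01. The remaining Id2 probe set did not reach the filter, at 38.8 and 44.8 on cKO arrays and 48.1 and 70.9 on control arrays, and there both cKO arrays were below both control arrays.

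Id1 and Id3 differed more by replicate number than by genotype. Id1 was 2.31-fold brighter on array 2 than on array 1 in cKO cells and 1.82-fold in control cells, and Id3 2.43-fold and 1.85-fold. Bmp4 went the same way at 1.56-fold and 1.42-fold. In all, 4 of the 9 kept members (Bmp4, Bmpr1a, Id1 and Id3) had both arrays numbered 2 above both numbered 1. The share over the 10140 genes was 22.4%, each gene being taken at its brightest probe set. For Bmpr1a the difference was 1.12-fold in cKO and 1.07-fold in control cells, and its other kept probe sets did not all go this way. The probe set at 730 and 880 on cKO arrays, against 773 and 851 on control arrays, went the same way. Those at 1244 and 1122, against 1135 and 1274, and at 495 and 475, against 466 and 554, went opposite ways in the 2 genotypes. The dim probe set, at 105 and 73.6, against 195 and 34.3, was brighter on array 1 in both. A difference of at least 1.5-fold in both genotypes, a size set after the values were seen, was met by Id1 and Id3 and by 2.66% of all genes. Of the 9 satellite cell markers, 3 (Pax7, Myf5 and Chodl) were brighter on array 2 in both genotypes, 1 (Myod1) was brighter on array 1 in both, and the others went opposite ways in the 2 genotypes. Myf5 read 1878 and 2843 on cKO arrays 1 and 2, against 2029 and 3002 on control arrays 1 and 2, and Myod1 read 1110 and 840, against 1371 and 1191. The endothelial marker Cdh5 ran the opposite way, at 1060 and 110, against 1044 and 79.7. The part of either cell type in the Id values was not tested. Of the 10139 other genes, Id3 had the profile nearest to that of Id1 over the 4 arrays, at a distance of 0.07. It was followed by Echdc3 at 0.08 and the homeobox gene Hoxc10 at 0.12, and Hoxc10 read 777 and 1830 on cKO arrays, against 847 and 1616 on control arrays. Bmp4 was at rank 303 and Id2 at rank 1635 in the same ordering.

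**Figure D3:**
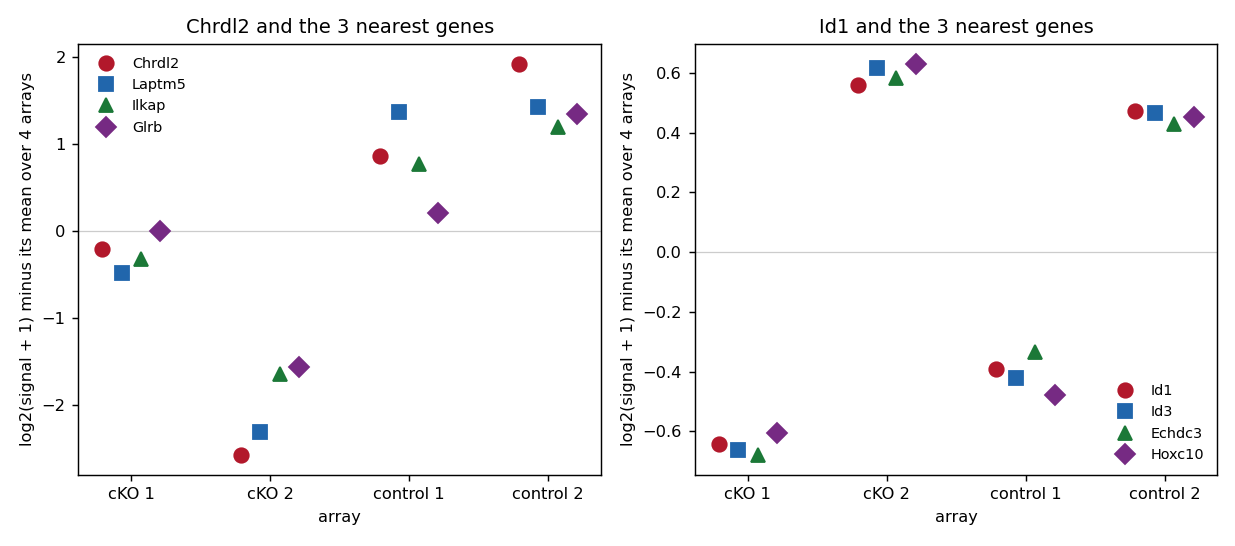
Log2(signal + 1) minus the mean of the gene over the 4 arrays, for Chrdl2 with its 3 nearest genes (left) and Id1 with its 3 nearest genes (right). At the brightest kept probe set of each, Chrdl2, Laptm5, Ilkap and Glrb are lower on both cKO arrays than on both control arrays. Id1, Id3, Echdc3 and Hoxc10 are higher on both arrays numbered 2.

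The start-site regions of Id3 and Bmp4, which were both brighter on the arrays numbered 2 in both genotypes, are shown with that of Id2. The brightest Id2 probe set did not follow the number. Its other kept probe set did, at 231 and 301 on cKO arrays 1 and 2, against 233 and 302 on control arrays 1 and 2. RefSeq promoter entries (GRCm38.p6) were found for 8 of the 10 members, and Chrdl2 and Id1 had none in the table. The 250 bases before the start are printed 5′ to 3′ on the strand of the gene, from chr4:136143572-136143821 (plus strand) for Id3, chr14:46390670-46390919 (minus strand) for Bmp4 and chr12:25096093-25096342 (minus strand) for Id2. Capitals mark matches to GGCGCC, a GC-rich motif that BMP Smads are known to bind and that reads the same on both strands, and to GTCT, the Smad box, which reads AGAC on the other strand.
Id3: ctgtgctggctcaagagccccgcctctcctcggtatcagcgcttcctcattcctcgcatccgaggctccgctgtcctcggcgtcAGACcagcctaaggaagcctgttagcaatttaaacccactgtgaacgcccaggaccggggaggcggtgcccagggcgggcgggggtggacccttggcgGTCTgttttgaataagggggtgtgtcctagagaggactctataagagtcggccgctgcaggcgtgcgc
Bmp4: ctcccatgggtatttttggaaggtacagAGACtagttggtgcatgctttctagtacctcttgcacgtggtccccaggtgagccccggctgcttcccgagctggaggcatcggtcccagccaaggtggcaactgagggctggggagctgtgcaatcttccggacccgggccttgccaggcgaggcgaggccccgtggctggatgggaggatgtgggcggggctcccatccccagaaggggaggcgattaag
Id2: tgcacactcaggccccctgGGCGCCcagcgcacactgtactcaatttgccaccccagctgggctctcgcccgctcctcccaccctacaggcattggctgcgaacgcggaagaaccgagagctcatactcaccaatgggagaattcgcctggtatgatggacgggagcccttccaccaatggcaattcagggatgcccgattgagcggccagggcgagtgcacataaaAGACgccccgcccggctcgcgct
Id3 held 2 GTCT matches and Bmp4 held 1, with 0 GGCGCC matches in each window, and Id2 held 1 match of each motif. GGCGCC and GTCT matches did not overlap in these windows. Of 32851 promoter windows of the same length, 9.59% held GGCGCC and 82.9% held GTCT, so a Smad box is common in such windows. Among the 8 members with an entry, 4 had GGCGCC and 5 had GTCT in at least 1 start-site window. These counts are by gene, and Smad5 has more than 1 window, whereas the shares are by window, so they are not compared. A match is a description of letters and not evidence of binding.

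Across the table, 0 of 22519 probe sets (0.0%) had an adjusted limma p under 0.05 between cKO and control, and 163 (0.724%) had an unadjusted limma p under 0.05. With 2 arrays a group, an exact 2-sided permutation test of a single value cannot go below 0.333. Of the 20 kept member probe sets, 4 were lower in cKO without overlap of the arrays (Chrdl2 and all 3 of Smad1), against 13.5% of all kept probe sets, 0 were higher without overlap, against 7.87%, and 16 overlapped. By gene, 2 of 9 members were lower without overlap, against 12% of 10140 genes, and 1 of them (Chrdl2) by at least 2-fold, against 0.306%. Since this comparison was used to choose the members, nothing is read from these shares. The median log2 difference was -0.05 over the 9 members and -0.04 over all genes.

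Other genes of the BMP pathway were taken as lists by role, without the members. Of 53 listed genes found on the array, 38 had a kept probe set and 0 passed the limma test. Both cKO arrays were above both control arrays for 5 of the 38, against 8.51% of all genes, and below them for 6, against 12%. The median log2 difference was -0.06, against -0.04 over all genes.

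Among the targets, 3 of 5 kept genes were higher on both cKO arrays, against 8.51% of all genes, and nothing particular to so short a list is read from this. Id4, the remaining Id family gene, read 1167 and 983 on cKO arrays, against 687 and 839 on control arrays, a log2 difference of 0.50 (SE 0.26) at its brightest probe set. Its other kept probe sets differed by 0.23, without overlap, and by -0.09, with overlap. Atoh8, a basic helix-loop-helix factor gene, read 158 and 263 on cKO arrays, against 139 and 134 on control arrays, with a difference of 0.58 (SE 0.39). Hey1, which is also a Notch target, read 1840 and 2300, against 1796 and 1447, with a difference of 0.35 (SE 0.22), and its arrays overlapped after quantile normalization and after median centring. The other 2 kept targets were Gata2 at 0.11 and Msx1 at -0.77, both with overlap.

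Of the extracellular modulators, 3 of 7 kept genes were lower on both cKO arrays, against 12% of all genes, and from this count too nothing particular to the list is read. Chrd, which encodes the BMP antagonist chordin, was dim, at 46.2 and 64.8 on cKO arrays and 69.8 and 88.6 on control arrays, with a log2 difference of -0.52 (SE 0.43). Nbl1, another BMP antagonist gene, and Bmp1, whose protease product cleaves chordin, differed by -0.20 and -0.25. The other kept Bmp1 probe set overlapped, at -0.14, as did the mean over its probe sets. Neither Chrd nor Nbl1 stayed without overlap after quantile normalization or median centring. Fstl1 and Twsg1 differed by -0.01 and -0.11 with overlap. Follistatin, Fst, is named here after its values were seen. It read 294 and 671 on cKO arrays, against 193 and 410 on control arrays, with log2 differences of 0.60 and 0.71 between arrays of the same number and of 0.15 and 0.53 at its other kept probe set.

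Of 10 receptor and co-receptor genes, 1 was higher on both cKO arrays, against 8.51% of all genes, and 9 overlapped. That gene was Acvr2a, an activin type II receptor that also serves BMPs, at 1233 and 1343 on cKO arrays and 1198 and 974 on control arrays (log2 difference 0.25). Its other kept probe set overlapped, at 0.05, and the brightest overlapped too after quantile normalization and after median centring. Rgmb, a BMP co-receptor gene, differed by 0.11 with overlap. Acvr1 differed by -0.11 with overlap, and was lower without overlap after quantile normalization and after median centring. Among 3 kept ligand genes, Bmp2 was lower on both cKO arrays, at 252 and 217, against 287 and 280 on control arrays (-0.28), and Bmp6 differed by 0.01. Of 10 Smads and regulators, the corepressor genes Ski and Skil were lower on both cKO arrays, by -0.20 and -0.18 on the log2 scale. The other kept probe set of Ski overlapped, at -0.14, as did the mean over its probe sets. The other kept probe set of Skil was lower without overlap, at -0.23. The phosphatase gene Ctdsp2 and the common-partner gene Smad4 overlapped at 0.06 and 0.13. Skil overlapped after quantile normalization and after median centring. Ppm1a differed by -0.06 with overlap, and was lower without overlap after quantile normalization. Of the 3 E protein genes, Tcf4 was higher on both cKO arrays at 0.18, at 2 of its 5 kept probe sets, while Tcf12 and Tcf3 overlapped at -0.04 and -0.28. Over all genes, 8.51% were higher and 12% lower without overlap, and nothing particular to these short lists is read from their counts.

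**Figure D4:**
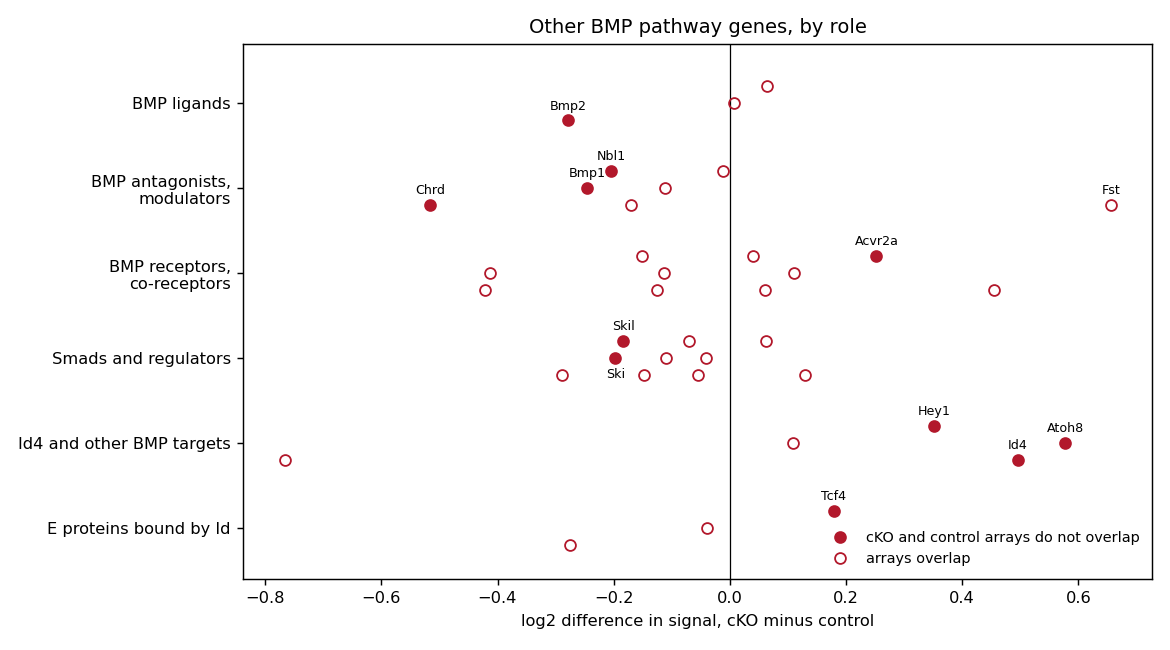
Log2 difference in signal, cKO minus control, of the 38 kept BMP pathway genes that are not members, in rows by role; filled points are genes whose cKO and control arrays do not overlap. Named points are the 5 higher and 6 lower genes without overlap, and Fst, which overlapped.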

How the data were processed

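Total RNA of sorted cells was labelled with biotin and hybridised to 1 array per sample, per the labels' protocols. The deposited table holds an intensity for every probe set on each array, on a linear scale, made with MAS5 according to the submitters' processing notes. The sources used here name no scaling target, and detection calls were not used. Genes were named from the platform annotation, and only from probe sets with 1 symbol (34945 of 45101). AFFX controls were left out. Signals were analysed as log2(signal + 1), which understates changes of low signals, with no further normalization. Groups were compared with limma 3.58.1 in R 4.3.3 (lmFit and eBayes with an intensity trend, no block, 2 residual and 5.32 prior degrees of freedom), with Benjamini-Hochberg adjustment over 22519 probe sets. The brightest kept probe set stood for a gene, and signals of different genes were ordered only to choose which to name, since probe sets differ in brightness for the same amount of RNA. The steps were tested on simulated arrays that held no difference by replicate number. That test does not tell how large a change the fit could call in these data. The members, the pathway and marker lists and the likeness measure were chosen with earlier results of these data known. Named were all members, Calcr, pathway genes without overlap, the 2 brightest of each pathway list, the defining cell type markers, and the 3 nearest genes to Chrdl2 and Id1; Smad6 did not pass the filter and got none. Other genes named, such as Smad4, Tcf3, Msx1, Gata2 and further markers, were chosen after their values were seen. The number of arrays limits the precision. Alternatives were a pseudocount of 32, quantile normalization, median centring, no filter, a filter at the 75th percentile, no trend, a replicate block, leaving out each array, the mean over probe sets, and unsuffixed probe sets only.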

Additional observations from a re-analysis of the deposited data

How the results depend on the processing

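No probe set passed the adjusted limma p of 0.05 in the comparison of cKO and control. The same held with a pseudocount of 32, quantile normalization, median centring, no filter, the stricter filter or no trend. An unadjusted limma p under 0.05 was met by 88 of 11260 probe sets with the stricter filter and by 878 of 45037 without a filter. The other counts lay between these. With 2 arrays a group, 0 calls do not show that no transcript changed. The replicate block gave 5 calls, none of them a member probe set. Leaving out single arrays gave 0 to 5. The 5 without cKO replicate 1 included Chrdl2, from which nothing is read, since Chrdl2 was chosen on these arrays, and the 1 without control replicate 1 was no member. The replicate numbers are not stated to pair the samples. Differences between numbers 1 and 2 correlated at 0.43 between the genotypes over 22519 probe sets, which are not independent, and the block changes no log2 difference (Chrdl2 stayed at -2.78 with it). The Chrdl2 difference ran from -2.78 to -2.56 by processing and from -3.97 to -1.60 with 1 array left out, while its only probe set drops out of the unsuffixed set. Its sign was the same in all 11 alternatives, from which nothing is read. Chrdl2 was chosen on this difference, and its genotypes do not overlap, so leaving out 1 array cannot turn the sign. The filters and the mean over its only probe set cannot change its value. The member median of -0.05 turned to 0.01 with median centring and to 0.04 with unsuffixed probe sets, and ranged from -0.22 to 0.11 with 1 array left out, within the spread between replicates. Members lower without overlap were 2 (1 with unsuffixed probe sets, 2 to 7 with 1 array left out), and members higher were 0 (0 to 5). Of the pathway genes, 5 were higher without overlap, 3 after quantile normalization, 3 with median centring and 3 with the mean over probe sets, and 10 to 14 with 1 array left out. Lower without overlap were 6, and 10 without a filter, and 10 to 16 with 1 array left out. With an array left out, 1 array faces 2, so fewer arrays can overlap. The shares over all genes in these alternatives are not given here, so nothing is read from these member and pathway counts. Smad5 differed by 0.15 with unsuffixed probe sets, against -0.07. Smad6 lay below the filter level, so it entered only the fit without a filter.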

Other observations

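Some BMP pathway genes followed the replicate number in both genotypes by more than 2-fold, and are given as values chosen after they were seen. The ligand gene Bmp5 read 283 and 19.5 on cKO arrays 1 and 2, against 268 and 18.8 on control arrays 1 and 2. Mbp, a myelin gene listed as a glial marker, read 1194 and 55.4, against 1249 and 96.2, on the same arrays. Eng and Acvrl1, the genes of an endothelial co-receptor and a type I receptor for BMPs, read 449 and 121, against 443 and 217, and 190 and 48.5, against 172 and 66.5. Gata2, a transcription factor gene of endothelial and blood cells, read 335 and 98.1, against 321 and 87.9. In each case the arrays numbered 1 were the brighter, as for the endothelial markers, whereas Fst was 2.28-fold and 2.12-fold brighter on array 2 in cKO and control cells. The part of other cell types in these values was not tested.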
